A study of Homo sapiens with 4 samples.

Results

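Long intergenic noncoding RNAs (lincRNAs) with fragments in every library of the study were described in HT-29 and NCM460 cells with and without SCS, a chondroitin sulfate from sturgeon. The members were chosen by measured values: genes that the deposited table types as lincRNA and that had a count above 0 in all 4 libraries. Of 7824 lincRNA genes in the table, 1306 were above 0 in any library and 230 in all 4. NEAT1, SNHG8, SNHG9, SNHG15 and SNHG19 were left out, and neighbouring genes with identical values were joined, which gave 213 member loci of 18650 loci above 0. Being detected everywhere is therefore how the loci were found and is not a result. Of the 213 loci, 72 also hold a protein-coding gene, and their values cannot be divided between both genes. The other 141 hold no protein-coding gene.

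HT-29 was derived from a human colorectal adenocarcinoma, and NCM460 serves as a normal human colon epithelial line. Libraries were made from total RNA of each, untreated and after 24 h in 100 μg/mL SCS, with 1 library per condition. Whether polyadenylated RNA was selected is not stated in the labels. The paper speaks of biological replicates, but the table has no replicate library, so no spread between replicates could be measured and p-values are absent. Both groups of each line come from a single established line in culture. Values are given throughout in the order HT-29 control, HT-29 with SCS, NCM460 control and NCM460 with SCS.

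The libraries held 1654764, 1605372, 1347854 and 1156568 fragments. The mitochondrial genome took 35.8% (35.8 to 35.9), 13.8% (13.8 to 13.9), 62.3% (62.3 to 62.4) and 46.3% (46.2 to 46.3) of these, with exact Clopper-Pearson intervals. That left 1061700, 1383424, 507692 and 621582 nuclear fragments. The mitochondrial share was lower with SCS in both lines, and its part in the differences reported here was not tested. Fragments were scaled to library size as CPM with edgeR's TMM factors, on which scale 1 fragment equals 0.489, 0.416, 1.28 and 0.925 CPM. All intervals are at 95% and cover counting error only.

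Markers were checked in each library. Of 12 colon epithelium genes, 9, 8, 6 and 6 were above 0, with summed levels of 6530, 3530, 4350 and 2660 CPM. KRT8 led the list in the first 3 libraries, with 7024, 3518 and 1406 fragments, and KRT19 led it in NCM460 with SCS, with 1150 fragments. CDX1 and GPA33 were at 0 in all 4 libraries. CDX2 was at 0 in both HT-29 libraries and had 14 and 12 fragments in NCM460 cells. In both NCM460 libraries VIL1, CDH17, KRT20 and LGALS4 were also at 0, and in HT-29 with SCS CDH17 was at 0. Of 9 mesenchymal genes, 4, 3, 5 and 6 were above 0, with sums of 5.87, 8.74, 118 and 131 CPM, and SPARC led them in NCM460 cells with 65 and 102 fragments. CDH2, COL1A2 and COL3A1 were at 0 in every library. Of 4 blood genes CD74 had 1 fragment in each HT-29 library, and PTPRC, HBB and HBA1 were at 0 throughout. The 3 squamous genes KRT5, KRT14 and TP63 were at 0 throughout. The part of these markers in the differences between the lines was not tested.

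LincRNAs are transcribed from stretches between protein-coding genes, are often capped, spliced and polyadenylated like messenger RNAs, and are usually less abundant and more restricted to cell types. Some act in the nucleus on chromatin or on a neighbouring gene, some bind proteins or RNAs in the cytoplasm, and some are mainly the precursors of small RNAs such as microRNAs. Several, such as CCAT1, PVT1 and CYTOR, have been studied in colorectal tumours.

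The microRNA counts given here are not complete, and a locus left out of them is named below among the falls in NCM460 cells. Among the members counted, 10 loci without a coding gene hold or are listed with microRNA genes on their own strand. The 18 genes of these loci give 29 mature sequences. Of these, 24 from 15 genes lie inside 8 of the loci by position, and the others lie partly or wholly beyond the ends of the locus they are listed with. The microRNAs of the hosts described here are shown because they are the known products of those transcripts, and capitals mark the seed, bases 2 to 8. C1orf132 (MIR29B2CHG in GENCODE 29) holds MIR29C and MIR29B2, and AC058791.1 is listed with MIR29A and MIR29B1, so both loci are listed with the same seed. GENCODE 29 names the locus AC058791.1 of the table LINC-PINT, while the table lists LINC-PINT as a separate gene with other values. Sequences are from RefSeq on GRCh38, and miR-29c-3p lies at chr1:207801865-207801886 on the minus strand.
miR-29a-3p: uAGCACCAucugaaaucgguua
miR-29b-3p: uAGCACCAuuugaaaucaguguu
miR-29c-3p: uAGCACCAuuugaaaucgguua
CTD-3252C9.4 is listed with MIR24-2, whose miR-24-3p lies at chr19:13836289-13836310 on the minus strand. MIRLET7BHG holds MIRLET7A3 and MIRLET7B, and MIR222HG holds MIR221 and MIR222.
miR-24-3p: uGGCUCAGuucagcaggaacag
let-7a-5p: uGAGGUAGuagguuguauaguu
let-7b-5p: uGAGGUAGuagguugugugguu
miR-221-3p: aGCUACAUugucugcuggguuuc
miR-222-3p: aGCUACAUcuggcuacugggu
Mature microRNAs were not measured in these libraries, so the values given belong to the host transcripts.

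Most member loci were faint. Their summed fragments ranged from 4 to 1977 with a median of 38. At the edge of the rule, 75 members had exactly 1 fragment in at least 1 library, namely 22, 16, 47 and 33 members by library. RP11-377D9.3, UBAC2-AS1, LINC01271, RP13-270P17.3 and the gene ENSG00000261685 had 1 fragment in each of the 4 libraries. Of the 75, RP11-212I21.4, which shares its locus with LPCAT2, was the most abundant, with 169, 142, 1 and 10 fragments. Just outside the rule, 179 lincRNA loci were at 0 in exactly 1 library, namely 28, 20, 87 and 44 by library. The most abundant of these was AF127936.7, listed with NRIP1, with 75, 91, 0 and 1 fragments, followed by MIR22HG with 11, 60, 0 and 1. CRNDE, a transcript abundant in colorectal tumours, had 7, 13, 2 and 0 fragments. A count of 0 allows up to 3 fragments, or 1.47, 1.25, 3.85 and 2.77 CPM, and most of these zeros were in the NCM460 libraries, which were shallower.

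All members together took 0.761% (0.745 to 0.778) of the nuclear fragments in the HT-29 control, 0.778% (0.764 to 0.793) with SCS, 0.592% (0.571 to 0.613) in the NCM460 control and 0.628% (0.608 to 0.648) with SCS. The 141 loci without a coding gene took 0.252% (0.243 to 0.262), 0.291% (0.282 to 0.3), 0.259% (0.245 to 0.273) and 0.245% (0.233 to 0.258). The 72 loci with a coding gene took 0.509% (0.496 to 0.523), 0.487% (0.476 to 0.499), 0.333% (0.317 to 0.349) and 0.383% (0.368 to 0.398). With SCS the share of the 141 loci was higher beyond counting error in HT-29 cells and that of the 72 loci in NCM460 cells, and the other intervals overlap.

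LINC00657, known as NORAD, keeps Pumilio proteins away from their target messenger RNAs and preserves genome stability. It had the most fragments of all members, 689, 1026, 85 and 177, at chr20:36045622-36050960. Its levels of 337, 427, 109 and 164 CPM were higher in HT-29 cells than in NCM460 cells in either condition. SCARNA2, a guide RNA of Cajal bodies whose identifier is the overlapping lincRNA AL356488.2 in GENCODE 29, had 144, 263, 196 and 204 fragments. TERC, the RNA template of telomerase, had 131, 203, 192 and 189 fragments. Per length, SCARNA2 and TERC led the loci without a coding gene: SCARNA2 had an FPKM of 273, 338, 872 and 542 and TERC 240, 313, 712 and 529, against 65.9, 67.5, 32.7 and 35.6 for LINC00657.

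**Figure D1:**
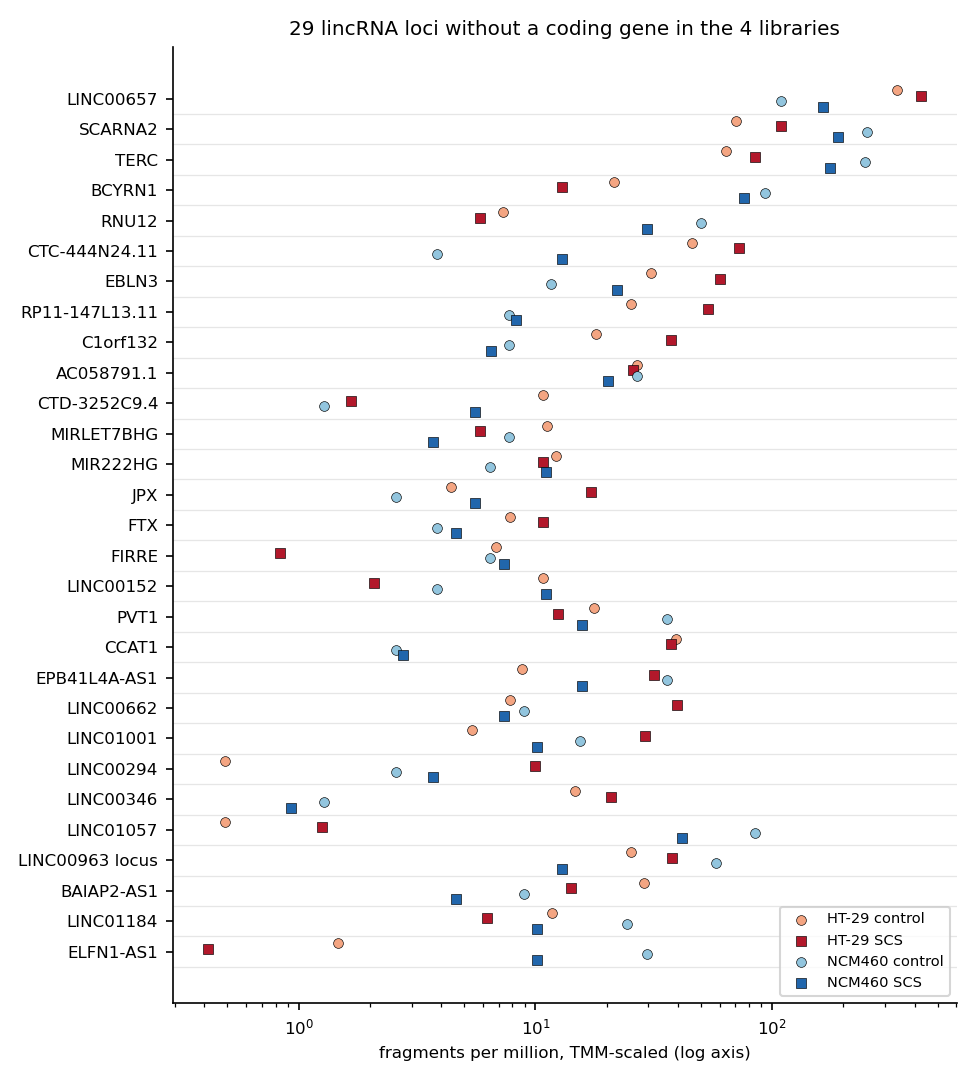
Levels of 29 member loci without a protein-coding gene in each of the 4 libraries, as TMM-scaled CPM on a log axis, with 1 point per library. NORAD (LINC00657), TERC and SCARNA2 stand highest, CCAT1 is higher in both HT-29 libraries, and LINC01057 is higher in both NCM460 libraries.

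The first comparison asks which of these RNAs differ between HT-29 cells with SCS and without it. Loci averaging 1 CPM or more across the compared libraries were tested, and a locus was called when it differed by more than 1.5-fold and its counting interval excluded no change. Of 187 members compared, 33 were called higher and 21 lower, or 17.6% and 11.2%, where 16.8% of all 12168 loci were called higher and 14.8% lower. The members' shares are near those of all loci. Their median log2 fold change was 0.18, beside 0.07 over all loci. Of the 117 compared loci without a coding gene, 21 were higher and 10 lower, with a median of 0.34. Fewer cells and less RNA per cell cannot be told apart in such bulk samples. Under total fragments in place of TMM the median of all loci moved to 0.31 and the members' split to 44 higher and 14 lower. Under nuclear fragments the split was 24 higher and 29 lower, so the balance of directions depends on the scaling.

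The called rises in HT-29 cells without a coding gene were led by LINC00294, LINC01001 and LINC00662. LINC00294 had 1, 24, 2 and 4 fragments and rose in HT-29 cells by a ratio of 20.4, with a log2 interval from 1.74 to 9.71. It overlaps the coding genes TCP11L1, which rose in HT-29 cells by 1.0 (0.27 to 2.01), and CSTF3, which was not called. LINC01001, near the end of the short arm of chromosome 11, had 11, 70, 12 and 11 fragments and rose by 2.19 (1.51 to 3.5) on the log2 scale. LINC00662 had 16, 95, 7 and 8 fragments and was 5.06-fold higher, with a log2 interval from 1.56 to 3.2. All 3 had their highest level in HT-29 with SCS, at 9.99, 29.1 and 39.5 CPM.

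EPB41L4A-AS1, a snoRNA host that overlaps EPB41L4A on the opposite strand, lies at chr5:112160526-112164276 and had 18, 76, 28 and 17 fragments. It rose in HT-29 cells by 1.71 (1.09 to 2.68) on the log2 scale and fell in NCM460 cells by 1.13 (-2.15 to -0.27). Its levels of 8.8, 31.6, 36 and 15.7 CPM put the treated HT-29 cells beside the untreated NCM460 cells. EPB41L4A had 0, 0, 7 and 16 fragments, and whether the counting separated strands is not stated.

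Among X-linked and chromatin-related RNAs, 5 of 13 listed genes were members, and in HT-29 cells 1 was called higher and 2 lower. Of all 12 listed genes compared, 4 were higher and 2 lower, beside 16.8% and 14.8% of all loci. JPX, an activator in the X inactivation centre, had 9, 41, 2 and 6 fragments and rose in HT-29 cells by 1.69 (0.89 to 3.18). FTX, its neighbour and a microRNA host, had 16, 26, 3 and 5 fragments and was not called in any comparison. FIRRE, which helps to position the inactive X chromosome in the nucleus, had 14, 2, 5 and 8 fragments and was 8.22-fold lower in HT-29 cells with SCS, with a log2 interval from -6.22 to -0.92. LINC00152, known as CYTOR and studied for its abundance in gastrointestinal tumours, had 22, 5, 3 and 12 fragments. It fell in HT-29 cells by 1.84 on the log2 scale (-4.13 to -0.93). In NCM460 cells its log2 value was 1.27 with an interval from -0.36 to 3.99, which was not called. TERC, the fifth member of that list, was not called with SCS in either line, and in NCM460 cells none of the 5 was called.

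Calls for the microRNA hosts are given by locus, and differences between hosts were not tested. C1orf132, the host of miR-29b-2 and miR-29c, had 37, 90, 6 and 7 fragments and rose in HT-29 cells by 1.0 (0.48 to 1.64). AC058791.1, listed with the other miR-29 genes, had 55, 62, 21 and 22 fragments and was called in none of the 4 comparisons as scaled. With the GC trend subtracted it was called lower with SCS in NCM460 cells, at -1.25 (-2.2 to -0.33), and lower in HT-29 cells than in NCM460 cells without SCS, at -0.98 (-1.73 to -0.18). CTD-3252C9.4, listed with MIR24-2, had 22, 4, 1 and 6 fragments and fell in HT-29 cells by 2.04 (-4.69 to -1.13). MIRLET7BHG had 23, 14, 6 and 4 fragments, MIR222HG 25, 26, 5 and 12, and MIR4435-1HG 11, 4, 4 and 4, and none of the 3 was called with SCS. Of 25 listed names of microRNA hosts, 17 were in the table, 13 above 0 in some library and 2 were members, MIRLET7BHG and MIR222HG. MIR4435-1HG, whose RefSeq name MIR4435-2HG is on the list, is counted neither among these 2 nor among the listed hosts compared. In HT-29 cells 1 of 8 listed hosts compared was called higher and 1 lower, beside 16.8% and 14.8% of all loci. In NCM460 cells 1 of 9 was called higher and none lower, beside 15.4% and 13.8%.

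Further called rises in HT-29 cells were in more abundant loci. CTC-444N24.11 had 94, 174, 3 and 14 fragments and rose by 0.64 (0.29 to 1.03). This call was lost under nuclear fragments, at 0.5, with a trend on transcript GC content subtracted, at 0.37, and after thinning, at 0.54. EBLN3, a pseudogene of a bornavirus-like nucleoprotein gene, had 63, 145, 9 and 24 fragments and rose by 0.94 (0.53 to 1.42). RP11-147L13.11 had 52, 129, 6 and 9 fragments and rose by 1.04 (0.6 to 1.57). SCARNA2 rose by 0.63 (0.34 to 0.94), a call lost under nuclear fragments. The other 11 called rises were fainter or smaller, from RP11-284F21.9 with 42, 80, 4 and 10 fragments and a rise of 0.67 (0.14 to 1.27), lost under nuclear fragments and after thinning, to RP11-703G6.1 with 2, 20, 4 and 3 fragments, a ratio of 8.51 with a log2 interval from 1.05 to 6.23. Of the 13 loci without a coding gene and with at least 100 fragments over both HT-29 libraries, 7 were called, all of them higher. Of loci of that abundance above 0 in all 4 libraries, 21.8% were called higher and 17.5% lower.

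Called falls in HT-29 cells without a coding gene were led by RP11-498C9.15, with 19, 1, 3 and 4 fragments. It was 22.3-fold lower with SCS, with a log2 interval from -9.86 to -1.83. BAIAP2-AS1, which is transcribed away from BAIAP2 at a distance of 241 bases between starts, had 59, 34, 7 and 5 fragments and fell by 0.97 (-1.68 to -0.39). BAIAP2 itself had 51, 40, 25 and 16 fragments and was not called in HT-29 cells. BCYRN1, a brain-enriched cytoplasmic RNA also found in tumours, had 44, 31, 73 and 82 fragments and fell by 0.68 (-1.45 to -0.04), a call lost under total fragments. RP11-357H14.17 had 29, 13, 4 and 8 fragments and fell by 1.21 (-2.46 to -0.4). RP11-1100L3.8, which overlaps the immediate early gene NR4A1, had 14, 2, 3 and 4 fragments and was 8.22-fold lower, with an interval from -6.22 to -0.92. NR4A1 had 46, 30, 62 and 36 fragments and fell in HT-29 cells by 0.79 (-1.56 to -0.15). It also fell in NCM460 cells, by 1.23 (-1.89 to -0.64), where RP11-1100L3.8 was not called, at -0.04.

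A pair of fainter falls completes the 10 without a coding gene. The locus ENSG00000250899 had 17, 2, 1 and 5 fragments and was 9.98-fold lower, with a log2 interval from -6.48 to -1.24. RP11-416I2.1 had 10, 3, 3 and 4 fragments and was 3.91-fold lower, with an interval from -4.47 to -0.01. Of the 31 calls in HT-29 cells without a coding gene, 9 were kept under all 8 settings of scaling, prior count, filters, GC trend and depth: LINC00294, LINC01001, LINC00662, JPX, C1orf132, RP11-147L13.11, EBLN3, BAIAP2-AS1 and CTD-3252C9.4. The calls of EPB41L4A-AS1, LINC00152 and FIRRE were lost when the fragments were thinned to the shallowest library.

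**Figure D2:**
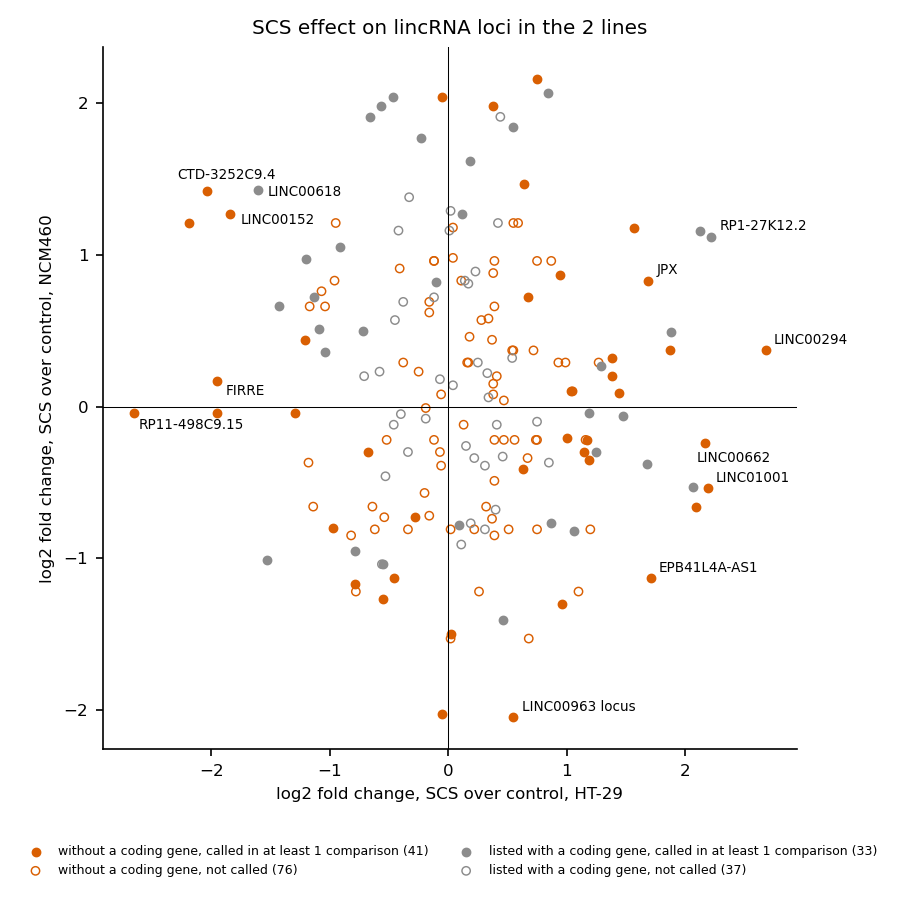
Log2 fold change of SCS over control in HT-29 cells against that in NCM460 cells for the 187 member loci compared in both, split by whether the locus holds a protein-coding gene and whether it was called in at least 1 line. Loci called in both lines lie in all quadrants, and EPB41L4A-AS1 stands high in HT-29 and low in NCM460 cells.

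The second comparison asks the same of NCM460 cells. All 213 members were compared, and 16 were called higher and 16 lower, or 7.51% each, where 15.4% of all 12657 loci were called higher and 13.8% lower. Of the 10451 loci above 0 in all 4 libraries, to which the members belong, 16.7% were higher and 15.5% lower. Their median log2 fold change was 0.04, beside 0.03 over all loci. Of the 141 loci without a coding gene, 3 were higher and 10 lower. Members were faint in these libraries: 146 had fewer than 20 fragments over both, and 6.16% of those were called, beside 9.07% of loci of that abundance above 0 in all 4 libraries. From 20 to 99 fragments 29.4% of members and 39.3% of such loci were called. Under total fragments the median of all loci moved to 0.65 and the members' split to 42 higher and 2 lower, and under nuclear fragments to 0.23 and 25 higher and 12 lower. DESeq2's factors gave 12 higher and 18 lower.

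In NCM460 cells GC-rich transcripts had lower log2 fold changes. Spearman's rho between both measures was -0.75 across 7235 loci with at least 20 fragments, against -0.15 across 9601 loci in HT-29 cells. Across the 67 members rho was -0.52, and across the 22 without a coding gene -0.24. Genes are not independent replicates, and these values describe the libraries. With a smooth trend on GC content subtracted, 9 members were higher and 12 lower, or 4.23% and 5.63%, where 6.07% of loci above 0 in all 4 libraries were called higher and 7.05% lower. Of the 32 calls given above, 11 were kept.

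**Figure D3:**
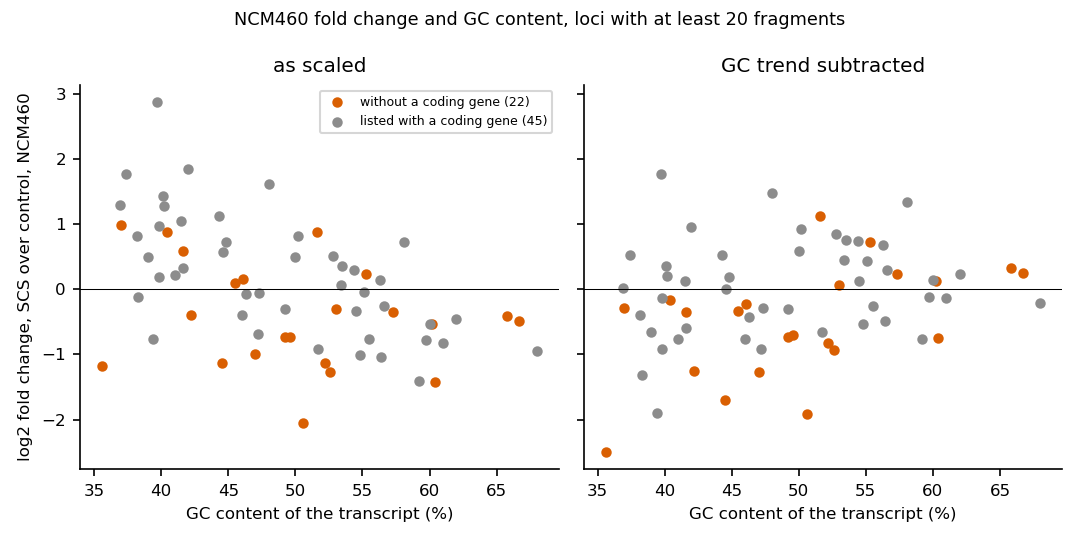
Log2 fold change of SCS over control in NCM460 cells against the GC content in percent, for the 67 member loci with at least 20 fragments and a known GC content, 22 without and 45 with a protein-coding gene, as scaled (left) and with the GC trend over all loci subtracted (right). As scaled, loci rich in GC lie lower, with a rho of -0.52 across the 67.

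The called falls in NCM460 cells without a coding gene were led by the locus of LINC00963, a transcript studied in prostate tumours, which is listed with the lincRNA ENSG00000239353. It had 52, 91, 45 and 14 fragments and fell by 2.05 (-3.14 to -1.27). The fall was still called with the GC trend subtracted, at -1.91. AC092171.4 had 21, 25, 12 and 5 fragments and fell by 1.5 (-3.59 to -0.13). The call was lost under nuclear fragments, at -1.33, and with the GC trend subtracted, at -0.85. ELFN1-AS1, known from colorectal tumours, had 3, 1, 23 and 11 fragments and fell by 1.43 (-2.72 to -0.44), a call also lost with the GC trend subtracted.

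FAM83H-AS1, which GENCODE 29 types as the protein-coding IQANK1, had 66, 52, 24 and 13 fragments and fell by 1.27 (-2.45 to -0.33). This call was lost with the GC trend subtracted, at -0.94. LINC01184 had 24, 15, 19 and 11 fragments and fell by 1.17 (-2.48 to -0.12), a call lost under total fragments, at -0.51, and under nuclear fragments, at -0.99. The gene that starts 594 bases from it in the other direction, SLC12A2, encodes a sodium-potassium-chloride cotransporter. It had 319, 47, 11 and 41 fragments and fell in HT-29 cells by 2.92 (-3.47 to -2.55) but rose in NCM460 cells by 1.35 (0.44 to 2.53).

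PVT1, the long RNA next to MYC, had 36, 30, 28 and 17 fragments and fell in NCM460 cells by 1.13 (-2.15 to -0.27), a call lost under total fragments, at -0.46, and with the GC trend subtracted, at -0.83. Its deposited FPKM values of 134, 26.7, 254 and 58.7 differ between libraries by far more than its fragments. The locus of PVT1 holds no coding gene and is listed with MIR1204, a microRNA gene left out of the microRNA counts above. CCAT1, the other member of 8 listed genes around MYC, had 80, 90, 2 and 3 fragments and was not called with SCS in HT-29 cells. In NCM460 cells CCAT1 was at or under 3 fragments in both libraries, so no fold is given. LINC01057, a transcript antisense to SLC44A3 in GENCODE 29, had 1, 3, 66 and 45 fragments and fell in NCM460 cells by 1.0 (-1.61 to -0.46). RNU12, the table's name for a locus whose identifier is the lincRNA Z93241.1 in GENCODE 29, had 15, 14, 39 and 32 fragments and fell in NCM460 cells by 0.73 (-1.48 to -0.05), a call lost under total and under nuclear fragments.

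The 3 called rises in NCM460 cells without a coding gene were faint. C11orf72 had 5, 12, 1 and 11 fragments, a ratio of 7.92 with a log2 interval from 0.2 to 8.41. LINC00861 had 4, 7, 2 and 15 fragments, a ratio of 5.4 with an interval from 0.33 to 5.61. RP11-121C2.2 had 8, 9, 1 and 10 fragments, a ratio of 7.2 with an interval from 0.03 to 8.29. Each rests on 1 or 2 control fragments, and with the GC trend subtracted C11orf72 alone of the 3 was still called. The tenth fall was in RP11-1246C19.1, with 16, 18, 6 and 1 fragments, 8.33-fold lower with an interval from -8.58 to -0.02. Of the 13 calls in NCM460 cells without a coding gene, those of the LINC00963 locus and C11orf72 were kept under all 8 settings. Under total fragments 9 of the 10 falls lost their call, and those of EPB41L4A-AS1 and LINC01057 were lost there alone.

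The lines were then set side by side. Of 54 members called in HT-29 cells and 32 called in NCM460 cells, 8 were called in both, 4 in the same direction and 4 in opposite directions. The 4 shared calls are 7.41% of the first list and 12.5% of the second. Over all loci above 0 in all 4 libraries, 777 calls in the same direction were 23.6% of 3286 in HT-29 cells and 23.1% of 3362 in NCM460 cells, and 404 loci were called in opposite directions. Across the 61 members with at least 20 fragments in both comparisons, rho was -0.12 and 29 had the same sign, and across 6679 loci of all kinds rho was 0.16. Without coding genes, 31 and 13 loci were called, and EPB41L4A-AS1 was the 1 locus called in both. Whether the responses differ between the lines was not tested, and a model with line and treatment was not fitted.

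The 4 loci called in the same direction each hold a coding gene. RP1-27K12.2 is listed with GCLC, the catalytic subunit of the first enzyme of glutathione synthesis. The locus had 165, 916, 14 and 44 fragments and rose by 2.22 (2.0 to 2.49) in HT-29 cells and by 1.12 (0.28 to 2.16) in NCM460 cells. RP11-456H18.2, listed with the zinc finger gene HIVEP1, had 55, 118, 2 and 16 fragments. It rose by 0.84 (0.4 to 1.36) in HT-29 cells and by a ratio of 5.76 in NCM460 cells, with a log2 interval from 0.44 to 5.69. RP11-783K16.13, listed with the phosphatase inhibitor PPP1R14B, had 168, 113, 215 and 154 fragments and fell by 0.79 (-1.16 to -0.45) in HT-29 cells and by 0.95 (-1.26 to -0.65) in NCM460 cells. AC008440.10, listed with MYADM, had 296, 118, 91 and 62 fragments and fell by 1.53 (-1.88 to -1.25) in HT-29 cells and by 1.01 (-1.52 to -0.55) in NCM460 cells. With the GC trend subtracted, the NCM460 calls of all 4 loci were lost. RP11-456H18.2 then stood at 1.62 (-0.01 to 5.24). RP1-27K12.2, RP11-783K16.13 and AC008440.10 moved to 0.53, -0.21 and -0.54. Both falls in NCM460 cells were also lost under total fragments, and the HT-29 call of RP11-783K16.13 under total fragments and after thinning.

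Of the 4 loci called in opposite directions, 3 hold a coding gene. LINC01089, listed with RHOF, had 76, 190, 118 and 92 fragments, higher with SCS in HT-29 cells and lower in NCM460 cells. LINC00618, listed with the kinase gene VRK1, had 21, 6, 5 and 21 fragments, and RP11-159D12.2, listed with the splicing factor gene SRSF1, had 301, 187, 46 and 134. Both were lower with SCS in HT-29 cells and higher in NCM460 cells. With the GC trend subtracted the NCM460 calls of these 3 loci were lost, and that of EPB41L4A-AS1 was kept at -1.7.

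Other loci that hold a coding gene stood out for abundance or size of change. SND1-IT1, inside SND1, had 532, 862, 148 and 163 fragments and was called with SCS in neither line. The locus of ZNRF3, a membrane ubiquitin ligase that limits WNT receptors, and KREMEN1 had 638, 364, 113 and 202 fragments and fell in HT-29 cells by 1.04 (-1.23 to -0.85). LINC00969, listed with the mucin gene MUC20 on an alternate contig, had 58, 296, 15 and 14 fragments and rose in HT-29 cells by 2.07 (1.71 to 2.55). AC108747.1 (ENSG00000273370), listed with the interleukin-1 receptor subunit gene IL1RAP, had 5, 36, 3 and 11 fragments and rose in HT-29 cells by 2.13 (1.26 to 4.32). AP000318.2, listed with MRPS6 and SLC5A3, had 379, 323, 33 and 42 fragments and was called with SCS in neither line as scaled. Subtracting the GC trend gave called falls of 0.71 (-0.93 to -0.49) in HT-29 and 1.32 (-2.02 to -0.62) in NCM460 cells.

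In NCM460 cells RP1-93H18.1, listed with DSE, had 1, 3, 2 and 29 fragments, a ratio of 10.4 with a log2 interval from 1.4 to 6.5. DSE encodes the epimerase that turns chondroitin sulfate into dermatan sulfate. LINC01140, listed with the heparan sulfate sulfotransferase gene HS2ST1, had 123, 123, 5 and 27 fragments and rose in NCM460 cells by 1.77 (0.56 to 3.69). RP11-214K3.24, listed with ZNF664, had 329, 439, 22 and 97 fragments and rose by 1.62 (0.99 to 2.41). The LINC01140 call was lost with the GC trend subtracted, and those of RP1-93H18.1 and RP11-214K3.24 were kept. BISPR, named as a positive regulator of the interferon-induced BST2 and listed with MVB12A, had 16, 27, 63 and 32 fragments and fell by 1.41 (-2.11 to -0.82).

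The third comparison asks how untreated HT-29 cells differ from untreated NCM460 cells, and the fourth asks the same under SCS. Without SCS, 200 members were compared, of which 31 were called higher in HT-29 cells and 36 lower, where 25.3% of all 12691 loci were called higher and 23.1% lower. Under SCS, 38 of 201 were higher and 36 lower, where 24.2% of all 13050 loci were called higher and 22.4% lower. In all, 33.5% and 36.8% of members were called, beside 48.4% and 46.6% of all loci, and 48.1% and 47.3% of loci above 0 in all 4 libraries. Without SCS 102 of the 200 had fewer than 20 fragments over both libraries, and 8.82% of those were called, beside 15.4% of loci of that abundance above 0 in all 4 libraries. Among loci with at least 100 fragments over both libraries, 87.5% of 24 members and 75.0% of 32 were called, beside 69.1% and 64.5% of loci above 0 in all 4 libraries. Of these 24 and 32 members, 20 and 23 hold a coding gene, and 4 and 9 do not. Without a coding gene, 11 were higher and 21 lower without SCS, and 21 higher and 15 lower under SCS. Under total fragments the medians of all loci moved from 0.1 to 1.12 without SCS and from 0.05 to 0.63 under SCS, and the members' splits to 71 higher and 15 lower and to 63 higher and 23 lower. Under nuclear fragments the median without SCS was 0.43 and the split 45 higher and 27 lower. The differences without SCS also ran with GC content, with a rho of -0.6 across 8643 loci and -0.41 across 97 members. Once the GC trend was subtracted, 34.0% of members and 36.7% of loci above 0 in all 4 libraries were called without SCS.

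Both line comparisons share no library with each other, and 40 members were called in the same direction in both. These were 59.7% of the 67 called without SCS and 54.1% of the 74 called under SCS, with 18 higher and 22 lower in HT-29 cells. Another 4 of the 44 called in both were called in opposite directions, beside 266 of 3033 loci above 0 in all 4 libraries. Over all loci above 0 in all 4 libraries, the calls in the same direction were 55.5% of 4990 and 56.4% of 4904, so the members' shares are near those of such loci. Across the 91 members with at least 20 fragments in both, rho was 0.67 and 69 had the same sign, beside a rho of 0.59 across 7980 loci of all kinds. Without coding genes, 32 and 36 loci were called, and 19 of them in the same direction in both.

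CCAT1, transcribed upstream of MYC and abundant in colorectal tumours, was 15.2-fold higher in HT-29 cells without SCS, with a log2 interval from 2.03 to 7.0. Under SCS it was 13.5-fold higher, with an interval from 2.16 to 6.06. These folds of CCAT1 rest on 2 and 3 NCM460 fragments. LINC00346 had 30, 50, 1 and 1 fragments and was 11.4-fold higher without SCS (log2 interval 0.92 to 8.86) and 22.5-fold higher under it (1.95 to 9.82). CTC-444N24.11 was 11.9-fold higher without SCS, with an interval from 1.98 to 5.88, and its log2 difference under SCS was 2.37 (1.7 to 3.38). LINC00657 differed by 1.61 (1.3 to 1.97) without SCS and by 1.38 (1.15 to 1.62) under it. Its difference without SCS was 0.56 with the GC trend subtracted and was not called.

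Lower in HT-29 cells were LINC01057, ELFN1-AS1, BCYRN1, TERC and RNU12. LINC01057 was 173-fold lower without SCS, with a log2 interval from -12.76 to -4.91, and 33.3-fold lower under it, with an interval from -7.39 to -3.42. ELFN1-AS1 was 20.1-fold lower without SCS (-6.71 to -2.61) and 24.4-fold lower under it (-10.04 to -1.83). The folds of LINC01057 and ELFN1-AS1 rest on at most 3 fragments in each HT-29 library. BCYRN1 differed by -2.06 (-2.7 to -1.56) without SCS and by -2.44 (-3.2 to -1.94) under it. Each of the 3 had a lower CPM in both HT-29 libraries than in either NCM460 library. OLMALINC, a transcript studied in oligodendrocytes, had 4, 13, 12 and 18 fragments and differed by -2.37 (-5.07 to -1.26) and by -1.42 (-2.77 to -0.51), the second a call lost under total fragments.

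TERC differed by -1.92 (-2.28 to -1.62) without SCS and by -1.04 (-1.34 to -0.76) under it. SCARNA2 differed by -1.82 (-2.16 to -1.52) and by -0.78 (-1.05 to -0.51). Without SCS both stayed called but smaller, at -0.75 and -0.69 with the GC trend subtracted and -0.84 and -0.73 under total fragments. Under SCS both calls were lost under total fragments, and that of SCARNA2 also with the GC trend subtracted. RNU12 differed by -2.58 (-3.74 to -1.88) and by -2.12 (-3.36 to -1.4). CH17-373J23.1, on chromosome 1, had 8, 13, 26 and 21 fragments and differed by -2.74 (-4.45 to -1.91) and by -1.63 (-2.96 to -0.78). AC024909.2 (ENSG00000274021), which overlaps the MAP kinase phosphatase gene DUSP6, had 39, 38, 36 and 59 fragments and was lower in HT-29 cells with log2 differences of -1.22 (-1.97 to -0.58), a call lost under total fragments, and -1.71 (-2.41 to -1.17). DUSP6 had 150, 93, 87 and 141 fragments.

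Some loci were called between the lines under SCS and not without it, and whether these differences differ was not tested. C1orf132 differed by 2.32 (1.43 to 3.89) under SCS, and without SCS its log2 value of 1.11 had an interval from -0.03 to 2.77. LINC00662 differed by 2.24 (1.38 to 3.67) under SCS and was not called without it. Both were called without SCS once the GC trend was subtracted, C1orf132 higher in HT-29 cells, at 1.21 (0.07 to 2.87), and LINC00662 lower, at -1.64 (-3.02 to -0.14). LINC00152 was lower in HT-29 cells under SCS, by -1.88 (-4.27 to -0.81), and without SCS its value of 1.23 was not called.

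The 4 loci called in opposite directions between the lines with and without SCS were EPB41L4A-AS1, the LINC00963 locus, LINC01001 and RP11-159D12.2. EPB41L4A-AS1 was lower in HT-29 cells without SCS, by -1.89 (-2.97 to -1.13), and higher under SCS, by 0.95 (0.24 to 1.86). The second call was lost after thinning, at 0.9. The LINC00963 locus was lower without SCS, by -1.15 (-1.79 to -0.58), a call lost under total fragments, at -0.08, and higher under SCS, by 1.46 (0.73 to 2.48). LINC01001 was lower without SCS, by -1.33 (-2.84 to -0.21), and higher under SCS, by 1.41 (0.59 to 2.58). The first call was lost in 4 of the 8 settings: total fragments (-0.36), nuclear fragments (-1.04), GC trend (-0.51) and thinning (-1.26). RP11-159D12.2, listed with SRSF1, was higher without SCS, by 1.3 (0.87 to 1.8), a call also lost with the GC trend subtracted, and lower under SCS, by -0.66 (-1.0 to -0.34), a call lost after thinning, at -0.41, and under total fragments, at 0.01.

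Among loci with a coding gene, RP11-212I21.4, listed with LPCAT2, was 64.3-fold higher in HT-29 cells without SCS, with a log2 interval from 3.51 to 11.32. AP001372.2, listed with the DNA polymerase subunit gene POLD3, had 46, 33, 1 and 9 fragments and was 17.5-fold higher without SCS, with an interval from 1.58 to 9.46. RP11-960L18.1, listed with PLCG2, had 2, 12, 27 and 36 fragments and was 35.5-fold lower without SCS, with an interval from -8.27 to -3.16. Under SCS, RP1-93H18.1 was 21.5-fold lower in HT-29 cells, with an interval from -6.78 to -2.74, and RP1-27K12.2 and LINC00969 differed by 3.19 (2.79 to 3.7) and 3.13 (2.48 to 4.14). RP11-66B24.1, listed with the retinaldehyde dehydrogenase gene ALDH1A3, had 38 fragments in HT-29 and 133 in NCM460 cells under SCS and differed by -2.86 (-3.52 to -2.43). AC098487.1 (ENSG00000248161), listed with the zinc transporter gene SLC39A8, had 18, 8, 11 and 26 fragments and differed under SCS by -2.46 (-4.21 to -1.67).

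**Figure D4:**
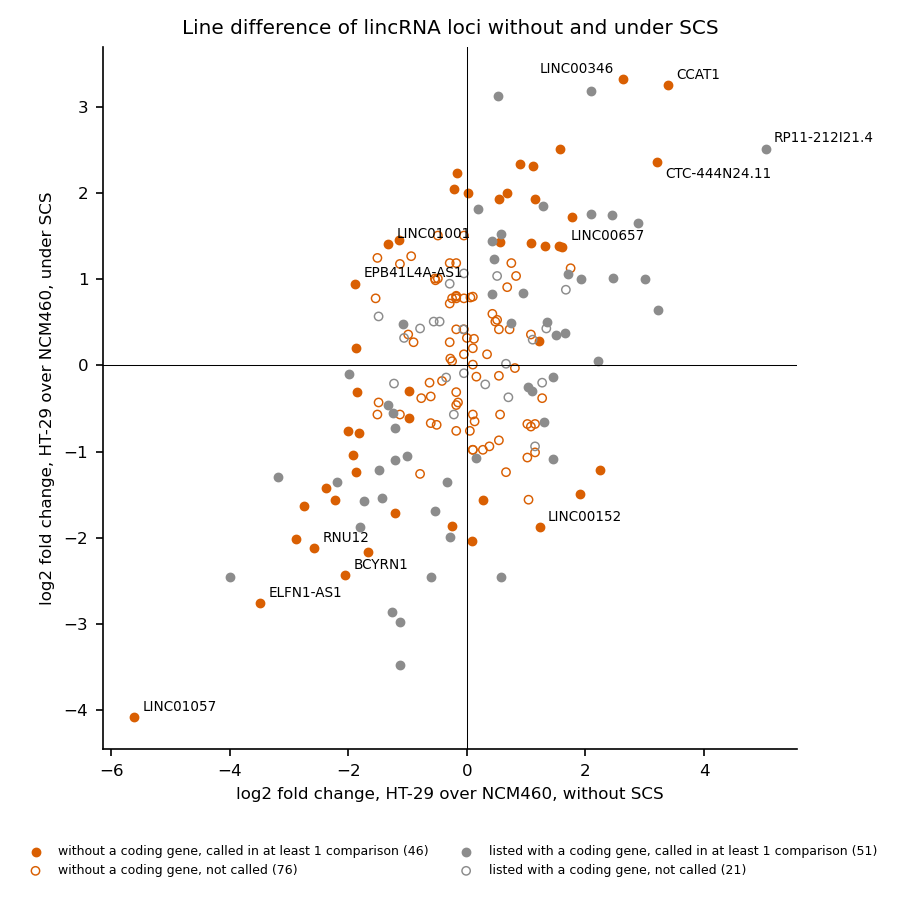
Log2 difference of HT-29 over NCM460 cells without SCS against that under SCS for 194 member loci, split by whether the locus holds a protein-coding gene and whether it was called in at least 1 condition. Most called loci lie in the upper right or lower left, with CCAT1 toward the upper right and LINC01057 at the lower left.

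Other listed genes gave few members. Of 9 listed names linked to DNA damage and p53, which count NORAD and LINC00657 separately, LINC00657 was the 1 member, called with SCS in neither line. Of 7 listed snoRNA hosts and translation-related genes, 6 were found by name, among them 1 member, EPB41L4A-AS1. CYTOR, the other, is present as LINC00152, a member described above that was called lower in HT-29 cells and not called in NCM460 cells. Of the genes found by name, 4 of the 5 compared in HT-29 cells were called higher, beside 16.8% of all loci. In NCM460 cells 2 of 6 were called higher and 1 lower, beside 15.4% and 13.8%. Outside the members, GAS5 had 125, 352, 92 and 144 fragments, ZFAS1 74, 270, 20 and 86, and OIP5-AS1 157, 392, 11 and 68. Of 22 tumour-associated genes, LINC00963 lies in a member locus through its lincRNA neighbour and is described above. Another 2, typed as lincRNA themselves, were members and called in no comparison: LINC00511 had 16, 11, 4 and 3 fragments and LINC01234 had 17, 27, 9 and 14.

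The loci also share features that the rule did not use. Of the 141 loci without a coding gene, 135 were found in GENCODE 29, which types 114 as lincRNA, 5 as protein-coding and 16 otherwise. A protein-coding gene of GENCODE 29 overlapped 36 of them, on the opposite strand in 29 and on the same strand in 9. The same-strand count includes loci that overlap their own entry, among them FAM83H-AS1, LINC00998, NCBP2-AS2 and AC093323.3, and these are not pairs. Where different genes overlap, the values of the pair are uncertain. The start of 20 lay within 1000 bases of a coding gene's start in the other direction. In HT-29 cells 12 of 19 such pairs had the same sign, and no pair had both genes called. In NCM460 cells 11 had the same sign, and both genes of 2 pairs were called, RNU12 and POLDIP3 lower and LINC01184 and SLC12A2 in opposite directions. Chromosome 1 held 12.1% of the 141, and chromosomes 7 and 12 held 8.51% each, beside 10.4%, 4.77% and 5.22% of loci above 0 in all 4 libraries. Their median GC content was 49.9%, beside 48.4% over all loci.

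Promoters of 58 of the 141 loci were found in RefSeq, on GRCh38.p14, as the 250 bases before to 50 after the start. Their median GC content was 64.2%, beside 58.7% over 35116 promoters. Motifs chosen after the values were seen were searched on both strands. CCAAT was in 48.3% of the members' promoters and 34.6% of all, GGGCGG in 53.4% and 45.0%, and TATAAA in 6.9% and 11.5%. TGACTCA, the AP-1 letters, was in 12.1% and 4.95%, and TGACNNNGC, the core of the antioxidant response element, in 22.4% and 13.3%. TGACGTCA was in 3.45% and 1.85% and CACGTG in 6.9% and 7.26%. A match is a description of letters and not a measured binding site.

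The promoters of a pair of loci that moved in HT-29 cells are shown because they hold several of these letters, which are in capitals. That of LINC00152, which fell, lies at chr2:87455177-87455476 on the plus strand and holds 2 matches of TGACTCA on its other strand, as TGAGTCA, and 1 of CCAAT. The promoter of the member MIR4435-1HG holds the same letters through the first TGAGTCA, so that match is counted at both loci. Whether fragments of LINC00152 and MIR4435-1HG were fully separated was not tested. The promoter of C1orf132, the miR-29 host that rose, lies at chr1:207822654-207822953 on the minus strand, 46447 bases inside the locus of the table, and holds 4 matches of CCAAT and 1 of TGACNNNGC.
LINC00152: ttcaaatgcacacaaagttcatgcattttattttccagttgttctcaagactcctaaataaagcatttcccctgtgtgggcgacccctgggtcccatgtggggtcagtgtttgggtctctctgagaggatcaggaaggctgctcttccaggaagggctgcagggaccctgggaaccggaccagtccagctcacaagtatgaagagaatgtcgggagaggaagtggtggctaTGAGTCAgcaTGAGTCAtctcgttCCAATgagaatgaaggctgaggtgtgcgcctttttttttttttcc
C1orf132: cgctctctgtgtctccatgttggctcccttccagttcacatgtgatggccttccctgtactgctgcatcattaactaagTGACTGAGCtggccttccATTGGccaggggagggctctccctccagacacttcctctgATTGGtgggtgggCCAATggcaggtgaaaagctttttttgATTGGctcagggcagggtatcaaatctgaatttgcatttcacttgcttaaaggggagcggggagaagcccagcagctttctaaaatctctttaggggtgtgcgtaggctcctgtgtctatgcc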

How the data were processed

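RNA-seq of 4 libraries, 1 per condition, was analysed from the deposited table. The count columns hold a signal that the authors made from fragment counts by dividing each library by a size factor. The design had assumed whole counts. The worth of 1 fragment was 0.686, 0.577, 2.04 and 1.33, and division by it made 99.94%, 99.94%, 99.89% and 99.94% of values whole within 0.1. The FPKM columns are, per the file headers, FPKM values by the authors. Labels name bcl2fastq 2.17.1.14, cutadapt 1.9.1, Bowtie2, HTSeq 0.6.1 and hg19, but 90.91% of the loci found in GENCODE 29 had the same start and end on GRCh38. The 26 genes without a name, all outside the members, held 0.02051%, 0.03515%, 0.00581% and 0.01249% of the counts.

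Fragments were scaled with edgeR 4.0.16 (TMM) in R 4.3.3. Log2 fold changes used a prior count of 2. Ratios and folds printed for single loci are plain ratios of CPM without the prior. For LINC01057 without SCS, 173-fold is the plain ratio and -5.61 the log2 value with the prior. Intervals are exact Clopper-Pearson intervals from scipy 1.17.1 in Python 3.11.15. With no replicates, count tests were not fitted. The method was tested on simulated data, and the outcome of that test is not reported here.

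The members and lists were chosen with earlier results of these data known. Named loci were the 10 with the most fragments, the 5 largest called rises and falls per comparison with at least 20 fragments, loci called in both lines, members of the role lists, and the loci at the edge of the rule. Not every locus the rule takes is described. Others, among them EBLN3, C1orf132, AC058791.1, BCYRN1, RNU12, BAIAP2-AS1, AC092171.4, RP11-1100L3.8, AC024909.2, C11orf72, OLMALINC, LINC00861 and RP11-121C2.2, were named after their values were seen. AC108747.1, AC024909.2 and AC098487.1 are GENCODE names of loci the table lists by clone. Lists covered microRNA hosts, X inactivation and chromatin, DNA damage and p53, the MYC neighbourhood, snoRNA hosts and translation, and tumour-associated genes, with markers of colon epithelium, mesenchyme, blood and squamous cells.

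Alternatives were DESeq2 1.42.0 size factors, total or nuclear fragments, a prior count of 0.5, no filter or a mean of at least 5 CPM, a lowess trend on GC content (span 0.3) subtracted, thinning to 507692 nuclear fragments, loci with lincRNA genes only, and FPKM ratios. Loci without a protein-coding gene, and all loci above 0 in all 4 libraries as a background, were added after seeing the data.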

Additional observations from a re-analysis of the deposited data

Results flagged for a closer look

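Called changes with SCS ran in opposite directions in both cell lines at 4 of the 187 members compared in both. Of 10179 loci above 0 in all 4 libraries compared in both, 404 did so. The difference between the lines was not tested. EPB41L4A-AS1 had a log2 fold change of 1.71 in HT-29 cells and -1.13 in NCM460 cells. LINC01089, listed with RHOF, had 1.06 in HT-29 cells and -0.82 in NCM460 cells. LINC00618, listed with VRK1, had -1.61 in HT-29 cells and 1.43 in NCM460 cells. RP11-159D12.2, listed with SRSF1, had -0.91 in HT-29 cells and 1.05 in NCM460 cells. With the GC trend subtracted the last 3 loci were not called in NCM460 cells, at -0.14, 0.36 and 0.12, while EPB41L4A-AS1 was called at -1.7. After thinning the HT-29 calls of EPB41L4A-AS1, at 0.85, and LINC00618, at -1.46, and the NCM460 call of LINC00618, at 1.06, were lost, and under total fragments the NCM460 calls of EPB41L4A-AS1 and LINC01089.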

How the results depend on the processing

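With 1 library per condition no result has a replicate check, and depth limits the NCM460 libraries most. Under the 8 settings of scaling, prior count, filters, GC trend and depth, 21 of the 54 calls in HT-29 cells, 6 of 32 in NCM460 cells, 32 of 67 between the lines without SCS and 50 of 74 under SCS were kept in all. The prior count of 0.5 and the absence of a filter lost none of the calls, and dropping a filter cannot remove one. The cause of lost calls was not tested unless stated. Counts of called members, in the order SCS in HT-29, SCS in NCM460, lines without SCS and lines under SCS, were 26, 10, 27 and 30 for loci with lincRNA genes only and 31, 13, 32 and 36 for loci without a protein-coding gene, where fewer loci are counted. FPKM ratios, which carry no counting interval, gave 107, 139, 144 and 152. Thinning, which leaves fewer fragments, gave 34 in HT-29 cells, and the GC trend gave 21 in NCM460 cells. Median log2 fold changes under total fragments were 0.44, 0.55, 0.69 and 0.53. FPKM ratios gave medians of -0.34 in NCM460 cells, -0.45 between the lines without SCS and -0.26 under SCS. Between the lines without SCS the median was also 0.13 with nuclear fragments, 0.15 with the 5 CPM filter and -0.19 with the GC trend subtracted. Under total fragments 3 differences of named loci between the lines reversed: RP11-159D12.2 under SCS to 0.01, and LINC01184 and PVT1 without SCS to 0.04 and 0.06. That scaling moves all loci alike, so these changes of sign are not particular to the 3 loci. Among 145 called differences of named loci, the call was lost in 3 under DESeq2's factors, 10 under nuclear fragments, 25 under total fragments besides the 3 reversed, 27 with the GC trend subtracted and 27 after thinning.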
